A study of Mus musculus with 3 samples.

Results

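The genes of telomerase and shelterin were described in KPC78 cells, a line of pancreatic ductal adenocarcinoma of the mouse. They are 10 genes chosen by symbol from the main expression table, out of 35764 symbols, by a rule that takes no measured value, although earlier results of these data were known when the list was drawn up. The 10 are the shelterin genes Terf1, Terf2, Tinf2, Acd, Terf2ip, Pot1a and Pot1b, the telomerase genes Tert and Wrap53, and the helicase gene Rtel1. The series held 1 group of 3 libraries of polyadenylated RNA from KPC78 cells with the genotype label WT, given as biological replicates, and its stated aim was to measure integrin subunit expression. No treatment, time or second line was part of these samples, so genes were compared with each other inside each library. All cells were of a single line, and the labels do not say how the cultures were separated, so p-values measure the spread between these libraries, which may be technical.

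Telomeres are the repeated ends of chromosomes, and shelterin is the protein complex that keeps them from being read as broken DNA. TRF1 and TRF2 bind the double-stranded repeat, TIN2 and TPP1 bridge them to POT1 on the single-stranded overhang, and RAP1 rides on TRF2. Telomerase is the reverse transcriptase TERT with an RNA template, and it makes up for the sequence lost at each replication. Mice carry a pair of POT1 genes, Pot1a and Pot1b, where humans have a single one. Most human somatic cells shut off TERT and most tumours regain it, while many mouse tissues keep some telomerase.

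Values are TPM, a share of transcripts that is corrected for their length. Levels of different genes can thus be set side by side within a library. A bias of a gene that is alike in all 3 libraries would remain, and the SDs and intervals below do not cover it. Library totals lay between 999728 and 999776 TPM, and the number of reads behind them is not known. A gene counts as detected where none of the 3 libraries is below 1 TPM. Of the 8 ductal tumour markers examined, 6 were detected, led by Krt18 at 1472 TPM in the mean, while Epcam at 0.16 TPM and Krt7 at 0.77 TPM were not. None of the 8 fibroblast, 9 leukocyte, 6 endothelial and 9 acinar or endocrine markers was detected, with summed levels of 1.55 to 1.96, 0.154 to 0.175, 0.382 to 0.645 and 0.0711 to 0.0797 TPM per library. Acta2 at 0.60 TPM, Ptprc at 0.053 TPM, Pecam1 at 0.36 TPM and Sst at 0.045 TPM were the highest of these lists in the mean. Of the last list 6 were listed at 0 in every library, among them Prss1 and Ins2, as was the leukocyte marker Adgre1.

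In GENCODE M21 coordinates on GRCm38, all 10 are protein-coding genes, and the values are per gene and not per exon or UTR. Each also has annotated transcripts that are not protein-coding, and for Tert 1 of 7 transcripts is protein-coding. Whether the values include such transcripts is not known. Terf2, Acd and Terf2ip lie on chromosome 8, at 107069400 to 107096547 and 105695860 to 105701102 on the minus strand and at 112011398 to 112020528 on the plus strand. Terf1 lies on chromosome 1 (plus strand, 15805646 to 15844052) and Tinf2 on chromosome 14 (minus strand, 55674689 to 55681820). Pot1a lies on chromosome 6 (minus strand, 25743737 to 25809246) and Pot1b on chromosome 17 (minus strand, 55651951 to 55712628). Tert lies on chromosome 13 (plus strand, 73626911 to 73649843), Wrap53 on chromosome 11 (minus strand, 69561758 to 69580255) and Rtel1 on chromosome 2 (plus strand, 181319739 to 181356616).

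Promoter windows from RefSeq (GRCm38.p6) are shown for Tert, the catalytic gene of the lowest level among the 10, and for the paralogs Pot1a and Pot1b, which differed several-fold in level. Each runs along the gene's own strand from 250 bases before the annotated start. Capitals mark matches, on either strand, to the E-box CACGTG, the GC box GGGCGG, the palindrome TGACGTCA of cyclic AMP response elements, CCAAT, the ETS core GGAAGT and the telomeric repeat unit TTAGGG. The windows lie at chr13:73626661-73626960 on the plus strand for Tert, at chr6:25809169-25809468 on the minus strand for Pot1a and at chr17:55712587-55712886 on the minus strand for Pot1b.
Tert: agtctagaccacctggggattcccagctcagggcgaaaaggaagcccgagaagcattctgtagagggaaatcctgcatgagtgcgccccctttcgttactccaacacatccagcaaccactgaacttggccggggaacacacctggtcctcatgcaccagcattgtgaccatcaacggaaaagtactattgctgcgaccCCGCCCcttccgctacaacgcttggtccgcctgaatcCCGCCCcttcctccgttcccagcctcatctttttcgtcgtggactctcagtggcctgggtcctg
Pot1a: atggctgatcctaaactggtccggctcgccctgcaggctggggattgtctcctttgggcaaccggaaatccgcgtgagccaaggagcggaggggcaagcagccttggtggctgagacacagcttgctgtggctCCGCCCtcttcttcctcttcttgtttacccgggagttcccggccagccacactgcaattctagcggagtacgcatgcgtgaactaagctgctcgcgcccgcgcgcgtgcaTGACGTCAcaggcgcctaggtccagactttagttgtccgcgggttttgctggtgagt
Pot1b: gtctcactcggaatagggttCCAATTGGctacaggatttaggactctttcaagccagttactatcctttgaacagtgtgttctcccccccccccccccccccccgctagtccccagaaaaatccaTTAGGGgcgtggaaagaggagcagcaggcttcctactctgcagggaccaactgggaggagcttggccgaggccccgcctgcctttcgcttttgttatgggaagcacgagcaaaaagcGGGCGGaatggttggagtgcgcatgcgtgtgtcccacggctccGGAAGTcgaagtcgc

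The Tert window held 2 GC boxes, beginning 51 and 14 bases before the start, and no match to the other 5 motifs. The Pot1a window held a GC box beginning 117 bases before the start and TGACGTCA beginning 7 bases before it. The Pot1b window held GGGCGG 8 bases before the start, CCAAT on each strand with 2 overlapping matches at 230 and 227 bases before it, TTAGGG at 125 bases before it and GGAAGT at 35 bases after it. Over all 32851 windows of this length, 35.7% held GGGCGG, 37.4% CCAAT, 23.8% GGAAGT, 10.6% TTAGGG, 7.15% CACGTG and 1.79% TGACGTCA. Among the 9 of 10 genes with a window, GGGCGG was found in 6, CCAAT and GGAAGT in 4 each, TTAGGG in Pot1b and Wrap53, TGACGTCA in Pot1a and Tinf2, and CACGTG in Wrap53. GC content ran from 48.0% to 60.7% over these windows, against a median of 52.7% over all windows. Terf2, Pot1b and Wrap53 each have 2 windows, of which only the first listed was searched, while the shares over all windows count every window. A match is a description of the letters and not a measured site.

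All 10 genes were detected, against 32.6% of all symbols and 55.4% of protein-coding symbols. In the mean, 8 of them stood above 10 TPM, and the exceptions were Pot1b and Tert. The median of the 10 was 21.3 TPM, against 0.034 TPM over all symbols, 4.03 TPM over protein-coding symbols and 22.9 TPM over the 11665 detected symbols. Among detected protein-coding genes, Acd stood above 72.2% of genes, Terf1 above 61.1%, Pot1b above 11.2% and Tert above 7.16%.

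**Figure D1:**
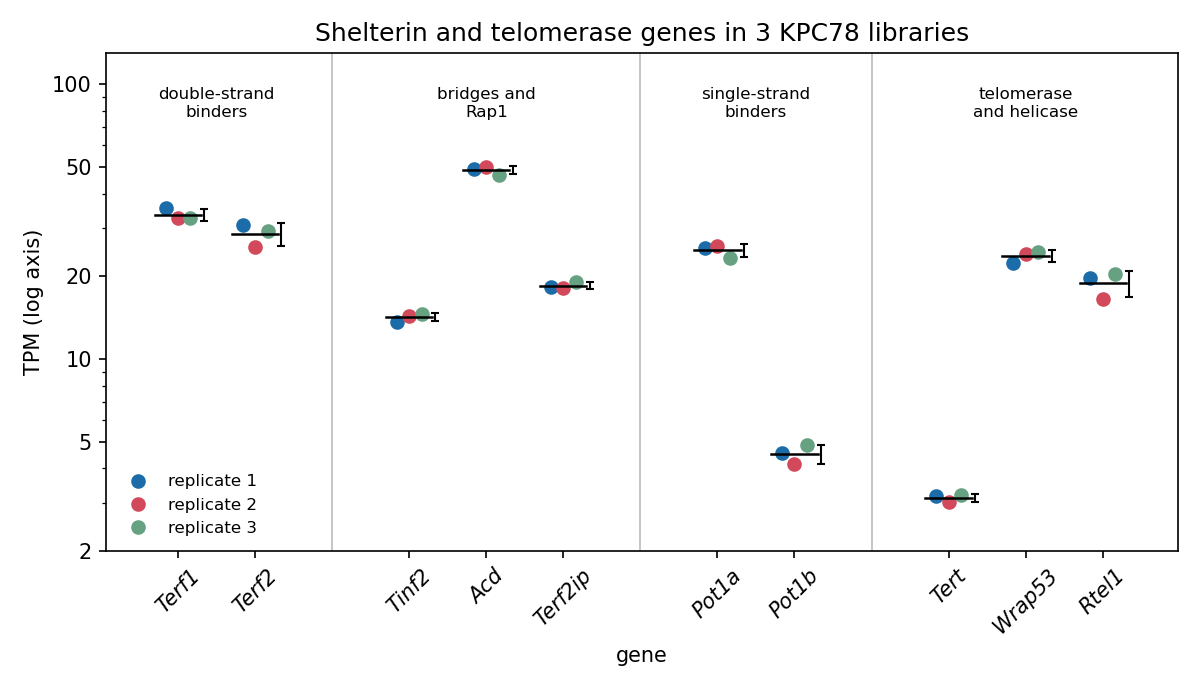
TPM of the 10 genes on a log axis, grouped by role, with a point for each of the 3 KPC78 libraries, a line at the mean and a bar of 1 SD. Acd lies highest, between 46.8 and 49.97 TPM, and Pot1b and Tert lie apart from the rest, below 5 TPM in every library.

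The genes of the double-strand binders were close to each other. Terf1, which encodes TRF1, a factor known to help replication forks pass through telomeres, had 35.4, 32.6 and 32.6 TPM in replicates 1, 2 and 3. Terf2, whose product TRF2 folds chromosome ends into loops, had 30.8, 25.5 and 29.3 TPM. Terf1 was above Terf2 in every library, 1.18 ± 0.087-fold (SD, n = 3), and the ranges of the genes did not overlap. The limma p-values below, except those from the spread of a ratio alone, are too small, for a reason given after the last pair. On the log2(TPM + 1) scale the ratio of Terf1 to Terf2 was 0.23 with a standard error of 0.085 and a 95% interval from 0.057 to 0.40 (adjusted p = 0.012, limma). This call did not hold everywhere: the adjusted p (limma) was 0.078 without replicate 1, 0.083 without replicate 3 and 0.067 when the spread of this ratio alone was used.

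The genes of the bridge stood well apart, with Acd the highest shelterin gene and Tinf2 second lowest, above Pot1b. Acd, which encodes TPP1, the subunit known to bring telomerase to chromosome ends, had 49.4, 49.97 and 46.8 TPM. Tinf2, which encodes TIN2, the subunit that holds the others together, had 13.7, 14.4 and 14.5 TPM. Acd was thus the highest of the 10 genes in all 3 libraries, and 3.43 ± 0.20-fold (SD, n = 3) above Tinf2. The log2 ratio of Acd to Tinf2 was 1.71 on the log2(TPM + 1) scale, with a 95% interval from 1.56 to 1.86 (adjusted p = 2.80e-08, limma). Tinf2 reached 0.42 ± 0.033 of the TPM of Terf1, one of the subunits it ties together (SD, n = 3; log2 ratio -1.18, 95% interval from -1.34 to -1.03, adjusted p = 1.39e-07, limma).

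Both bridge genes overlap a neighbour on the opposite strand in GENCODE M21. Of the 31-base words in the longest protein-coding transcript, 36.9% for Tinf2 were also found in transcripts of Gmpr2, and 29.5% for Acd in transcripts of Carmil2. Gmpr2 stood at 20.1, 22.7 and 18.8 TPM, above Tinf2 in every library, while Carmil2 stood at 0.18, 0.097 and 0.13 TPM. The sources used here do not say whether counting used strand, so the level of Tinf2 is uncertain, and the part of the overlap in it was not tested. In the other 8 genes such shared words made up at most 7.47%, the share of Pot1b, and none were found in Terf2, Rtel1 and Wrap53.

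Terf2ip, which encodes RAP1, a protein that reaches telomeres by binding TRF2, had 18.2, 18.1 and 19.1 TPM. Its values varied least of the 10, with a coefficient of variation of 2.95%. Terf2ip stood below its partner Terf2 in every library, at 0.65 ± 0.060 of its TPM (SD, n = 3). The log2 ratio of Terf2ip to Terf2 was -0.60 on the log2(TPM + 1) scale, with a 95% interval from -0.77 to -0.42 (adjusted p = 4.39e-08, limma).

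The paralogs for the single-strand binder were uneven. Pot1a, whose product is known to silence the ATR damage signal at mouse telomeres, had 25.4, 25.9 and 23.3 TPM. Pot1b, whose product is known to limit trimming of the 5-prime strand at mouse telomeres, had 4.53, 4.16 and 4.87 TPM. Pot1a supplied 84.6% ± 1.74 of their summed TPM and was 5.54 ± 0.72-fold above Pot1b (SD, n = 3). The log2 ratio of Pot1a to Pot1b was 2.23 on the log2(TPM + 1) scale, with a 95% interval from 2.05 to 2.41 (adjusted p = 3.70e-08, limma). The longest transcript of Pot1a shared 0.35% of its 31-base words with Pot1b, so the paralogs have little sequence of that length in common.

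POT1 proteins bind telomeres through TPP1, and Acd was set against both genes. Acd had 1.96 ± 0.041 times the TPM of Pot1a (SD, n = 3; log2 ratio 0.94 on the log2(TPM + 1) scale, 95% interval from 0.71 to 1.17, adjusted p = 1.21e-15, limma). With the spread of the ratio of Acd to Pot1a alone, the adjusted p was 0.0030 (limma's linear model without shrinkage). Against the summed TPM of Pot1a and Pot1b, Acd stood at 1.65, 1.66 and 1.66 in replicates 1, 2 and 3. This ratio, a description with no test, differed between libraries by an SD of 0.0086.

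Shelterin mRNA summed to 178, 171 and 171 TPM in replicates 1, 2 and 3. Acd made up 28.2% ± 0.99 of it, Terf1 19.4% ± 0.49, Terf2 16.5% ± 1.35 and Pot1a 14.4% ± 0.75 (SD, n = 3). Terf2ip made up 10.7% ± 0.47, Tinf2 8.22% ± 0.44 and Pot1b 2.62% ± 0.22 (SD, n = 3). The order of these shares was the same in replicates 1 and 3, while in replicate 2 Pot1a at 15.2% was above Terf2 at 14.9%. The highest gene was 10.9, 12.0 and 9.60 times the lowest.

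**Figure D2:**
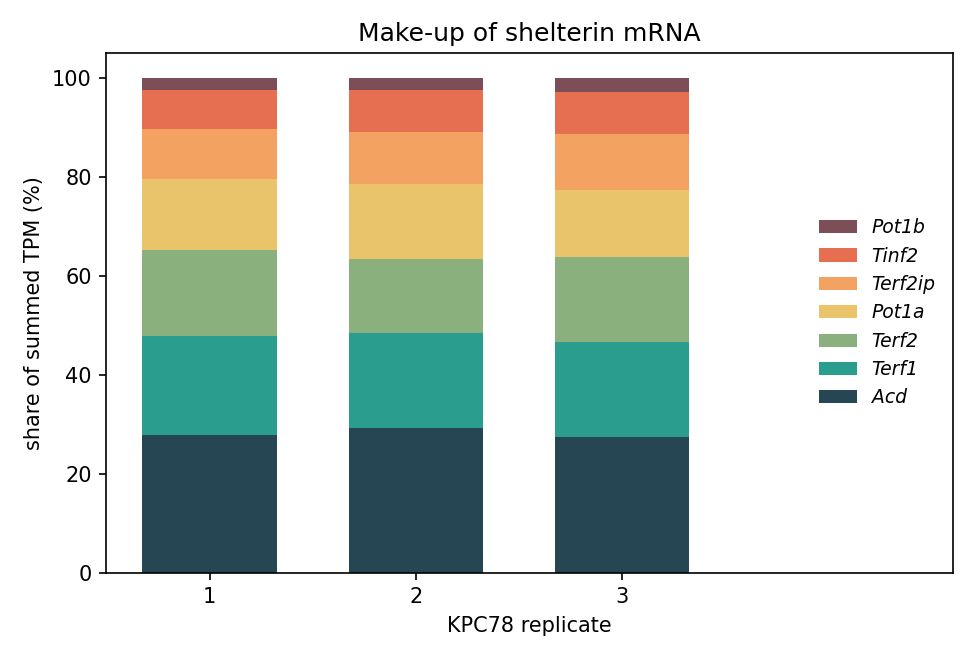
Share of each shelterin gene in the summed TPM of the 7 shelterin genes, in percent, as stacked bars for the 3 KPC78 replicates. Acd takes 27.4% to 29.3% of each bar and Pot1b 2.44% to 2.86%.

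Tert, the catalytic subunit of telomerase, was the lowest of the 10 genes in every library, with 3.17, 3.01 and 3.20 TPM. Its mean of 3.13 ± 0.099 TPM (SD, n = 3) carried a coefficient of variation of 3.17%, against a median of 14.0% over the detected genes of its decile of expression, the lowest. The read counts behind it are not known. Wrap53, which encodes TCAB1, the factor that brings telomerase to Cajal bodies, had 22.5, 24.1 and 24.6 TPM. Tert stood at 0.13 ± 0.0084 of the TPM of Wrap53 (SD, n = 3; log2 ratio -2.58 on the log2(TPM + 1) scale, 95% interval from -2.76 to -2.41, adjusted p = 1.69e-25, limma). With the spread of the ratio of Tert to Wrap53 alone, the adjusted p was 0.0026 (limma's linear model without shrinkage). In GENCODE M21, Wrap53 lies head to head with Trp53, with 103 bases between them and no overlap.

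Dkc1, which encodes dyskerin, the protein that holds the telomerase RNA, served as a second partner of Tert and had 72.7, 64.2 and 71.7 TPM. Tert stood at 0.045 ± 0.0017 of the TPM of Dkc1 (SD, n = 3). The log2 ratio of Tert to Dkc1 was -4.09 on the log2(TPM + 1) scale, with a 95% interval from -4.22 to -3.96 (adjusted p = 5.62e-09, limma). Dyskerin also serves in the many small nucleolar RNPs that modify ribosomal RNA. The telomerase RNA gene Terc has no polyadenylated tail in its mature form. It was listed for analysis but has no value under that symbol, so its level is not known here.

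Rtel1, a helicase that opens telomeric loops and unwinds G-quadruplexes, had 19.7, 16.6 and 20.4 TPM. It varied most of the 10 genes, with a coefficient of variation of 10.8% and its lowest value in replicate 2. Tert reached 0.17 ± 0.013 of the TPM of Rtel1 (SD, n = 3; log2 ratio -2.27, 95% interval from -2.45 to -2.08, adjusted p = 2.40e-32, limma). With the spread of the ratio of Tert to Rtel1 alone, the adjusted p was 0.0041 (limma's linear model without shrinkage). TRF2 is known to recruit RTEL1 in S phase. Rtel1 stood at 0.66 ± 0.030 of the TPM of Terf2 (SD, n = 3; log2 ratio -0.57, 95% interval from -0.74 to -0.40, adjusted p = 8.01e-08, limma).

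All 10 pairs of genes compared by role passed an adjusted p of 0.05 in limma, but 93.1% of all gene ratios tested in the same fits did too. A passing pair is therefore no result about these genes. The p-values and the intervals of these fits rest on a spread pooled over genes, although the deviations of the second gene of a pair enter the ratios of all genes to it, and the p-values are too small for that reason. With the spread of each ratio alone 9 pairs passed, all but Terf1 over Terf2, with adjusted p (limma's linear model without shrinkage) from 0.00093 to 0.019, against 87.5% of all ratios. The 95% interval then ran from -0.024 to 0.48 for Terf1 over Terf2, from 1.81 to 2.64 for Pot1a over Pot1b, from -0.92 to -0.28 for Terf2ip over Terf2 and from 1.51 to 1.91 for Acd over Tinf2. It ran from -1.46 to -0.91 for Tinf2 over Terf1, from -2.78 to -2.38 for Tert over Wrap53, from -4.25 to -3.94 for Tert over Dkc1 and from -2.56 to -1.97 for Tert over Rtel1. These 8 intervals were wider than those of the pooled fits, while those of Acd over Pot1a, from 0.87 to 1.01, and Rtel1 over Terf2, from -0.72 to -0.42, were narrower.

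**Figure D3:**
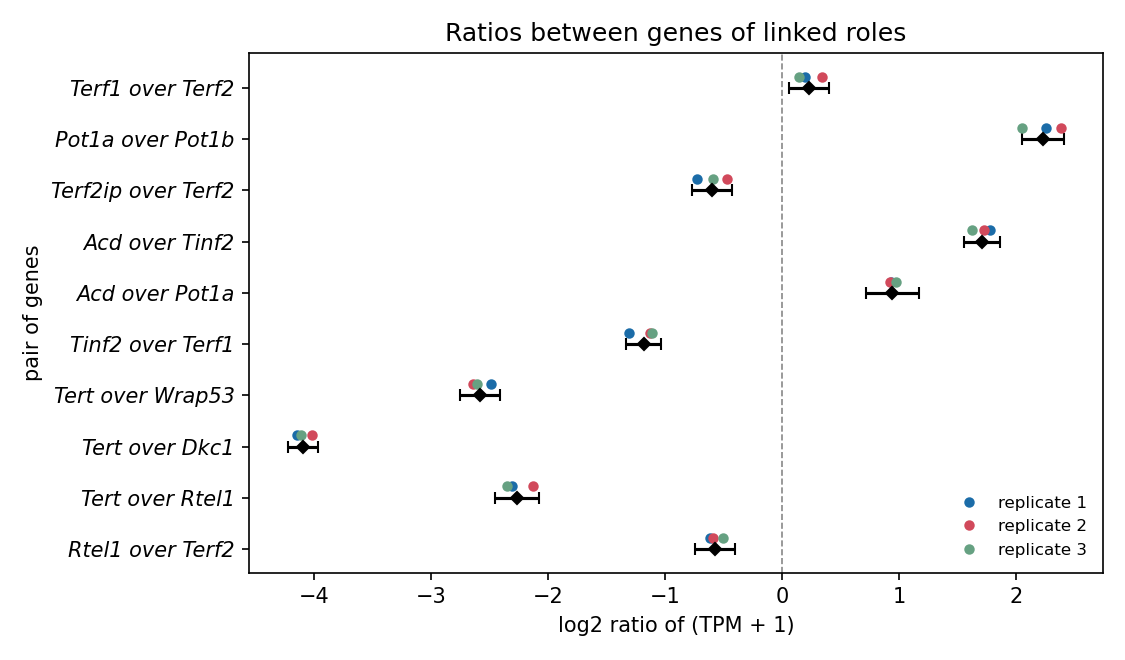
Log2 ratio of (TPM + 1) for the 10 pairs of genes, with a coloured point for each library and a black diamond for the mean. The 95% interval drawn is that of the limma fits with the spread pooled over genes. With the spread of the ratio alone, the interval of Terf1 over Terf2 ran from -0.024 to 0.48. Positive values mean that the first-named gene is higher. Terf1 over Terf2 lies nearest to 0, at 0.23, and Tert over Dkc1 farthest, at -4.09.

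In order of mean TPM the 10 genes ran Acd, Terf1, Terf2, Pot1a, Wrap53, Rtel1, Terf2ip, Tinf2, Pot1b and Tert. Of the 9 pairs of neighbours in this order, 6 passed an adjusted p of 0.05 in limma, against 93.2% of all ratios in those fits. The order was taken from these same values, so each gene was set against the closest one below it in the mean. A share under that of all ratios follows from this choice, and the p-values of these pairs are no support for the order. Terf2 and Pot1a did not differ beyond their spread, with a log2 ratio of 0.19 and a 95% interval from -0.040 to 0.42 (adjusted p = 0.12, limma), although without replicate 2 the ratio was 0.29 (adjusted p = 0.028, limma). Neither did Pot1a and Wrap53, with 0.065 and an interval from -0.11 to 0.24 (adjusted p = 0.47, limma), or Rtel1 and Terf2ip, with 0.027 and an interval from -0.13 to 0.18 (adjusted p = 0.69, limma). Wrap53 was above Rtel1 by a log2 ratio of 0.32 (adjusted p = 0.0014, limma), a call lost with the spread of that ratio alone (adjusted p = 0.099, limma without shrinkage). Pot1b was above Tert by 0.42 on this scale (adjusted p = 0.00034, limma), and was the higher of the pair in 3 of 3 libraries.

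Over all genes, the libraries differed in a way linked to transcript length. Across 8093 genes of at least 10 TPM, the difference between a library and the mean of the others had a Spearman correlation with transcript length of 0.24 in replicate 1, -0.49 in replicate 2 and 0.38 in replicate 3. These 3 correlations are not independent, since each library also enters the mean the others are set against. In replicate 2 the median of that difference was -0.073 on the log2(TPM + 1) scale. Of the 10 genes 6 were lower there than in the other libraries, namely Rtel1 at -0.26 (longest protein-coding transcript of 4401 bases), Terf2 at -0.23 (2667 bases), Pot1b at -0.14 (3523 bases), Tert at -0.060 (4313 bases), Terf1 at -0.059 (2268 bases) and Terf2ip at -0.040 (3560 bases). The other 4 were higher, Pot1a at 0.084 (3151 bases), Acd at 0.055 (3154 bases), Wrap53 at 0.036 (1891 bases) and Tinf2 at 0.025 (2956 bases). The genes with the longest transcripts, Rtel1, Tert, Terf2ip and Pot1b, were all lower in replicate 2, but so was the median gene. Rtel1, Terf2 and Pot1b lay below that median of -0.073, while Tert, Terf1 and Terf2ip lay above it. Tert and Pot1b average below 10 TPM and were not among the 8093 genes. The share of all genes that were lower in replicate 2 was not counted. Terf2 and Terf1 were lower too, with shorter transcripts than Pot1a, Acd and Tinf2, which were higher. The part of transcript length in these values was not tested.

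Beyond the 10 genes, 67 genes in 6 lists of telomere biology were set out for comparison. A place in a list does not mean that a gene serves telomeres alone, so a high level is not specific to telomeres. Of the 66 with values, all but Terc, 61 were detected, against 55.4% of protein-coding symbols. Medians of the lists can be read beside 4.03 TPM over protein-coding symbols and 22.9 TPM over all detected symbols. The telomerase RNP and its assembly factors were detected for 14 of 14 genes, with a median of 76.1 TPM. This list was led by the chaperone genes Hsp90ab1 at 2286 ± 79.2 TPM, Hsp90aa1 at 538 ± 33.0 TPM and Ptges3 at 243 ± 4.53 TPM (SD, n = 3), which serve many proteins besides telomerase. Telomerase RNA processing was detected for 9 of 9 genes with a median of 44.6 TPM, led by Nop58 at 264 ± 8.45 TPM, Pabpn1 at 119 ± 5.89 TPM and the exosome gene Exosc10 at 72.2 ± 5.49 TPM (SD, n = 3).

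CST is the complex that ends telomerase action and fills in the complementary strand with DNA polymerase alpha. Its 3 genes stood at 52.2 ± 1.22 TPM for Stn1, 38.7 ± 1.54 TPM for Ctc1 and 33.1 ± 3.24 TPM for Ten1 (SD, n = 3), and with polymerase alpha and primase 7 of 7 genes were detected, at a median of 30.9 TPM. The nucleases, helicases and modifiers listed as linked to shelterin were detected for 17 of 17 genes, at a median of 20.6 TPM. Whether shelterin recruits each of them in these cells was not tested. Tnks2, one of the tankyrase genes whose enzymes are known in human cells to release TRF1 from telomeres, led with 80.0 ± 2.94 TPM (SD, n = 3). The dNTP hydrolase gene Samhd1 followed at 71.1 ± 5.69 TPM and Ercc1 at 44.8 ± 5.02 TPM (SD, n = 3). Telomeric chromatin genes were detected for 13 of 13, at a median of 19.6 TPM, led by the histone H3.3 genes H3f3a at 1297 ± 37.8 TPM and H3f3b at 579 ± 8.91 TPM and by Atrx at 36.9 ± 4.74 TPM (SD, n = 3). ATRX and DAXX deposit H3.3 at telomeres and are lost in many tumours that lengthen telomeres without telomerase. Daxx stood at 21.4, 18.2 and 19.2 TPM.

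The meiotic telomere genes were the exception, with 1 of 6 detected. Terb2, Majin and Kash5 were listed at 0 in every library, Terb1 stood at 0.20, 0.14 and 0.14 TPM, and Spdya at 0.35, 0.74 and 0.68 TPM. Sun1, at 65.2, 61.6 and 68.2 TPM, is a nuclear envelope gene that somatic cells use as well.

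**Figure D4:**
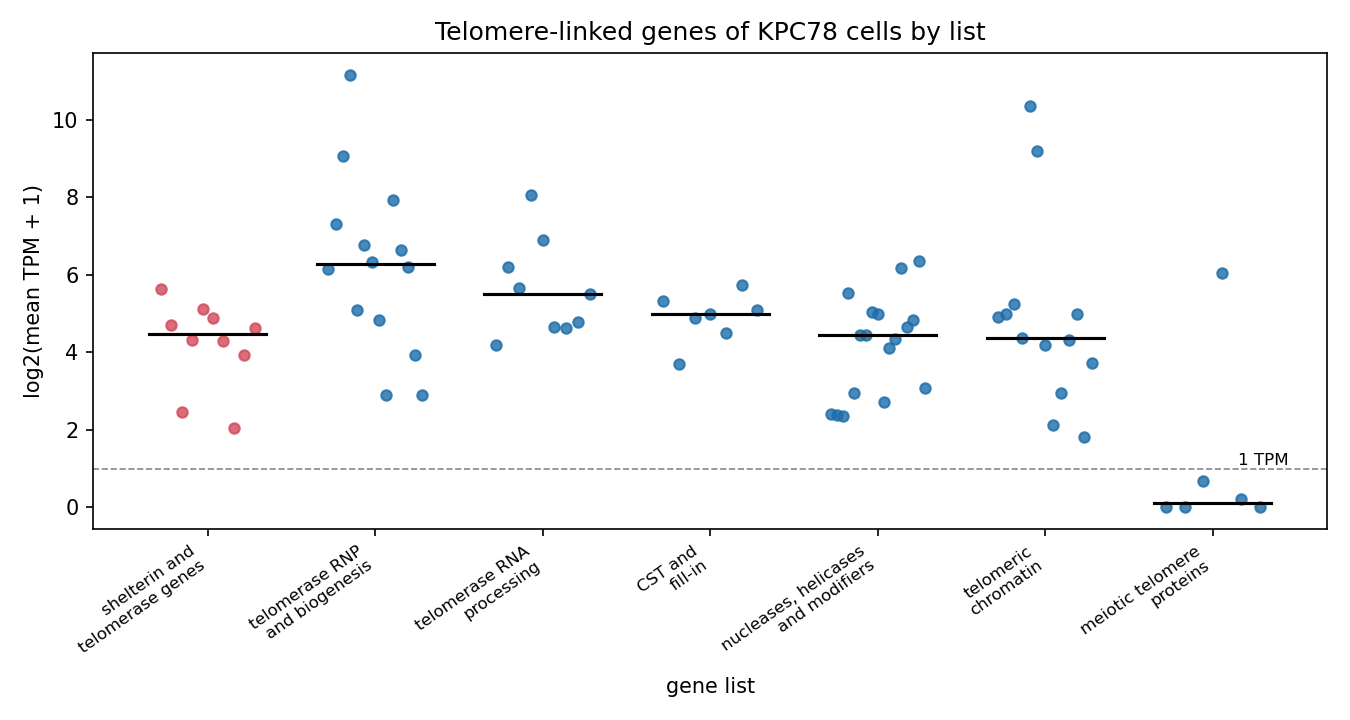
Mean level of each gene, as log2(mean TPM + 1), for the 10 genes in red and 6 telomere-linked lists in blue, with a line at the median of each list and a dashed line at 1 TPM. The lists other than the meiotic one lie above 1 TPM throughout, and of the meiotic list Sun1 alone does.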

How the data were processed

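The authors deposited TPM per gene symbol; the file headers name kallisto. Per the submitters' processing notes, the tools were bcl2fastq 2.19 and kallisto 0.44.0, with GRCm38.p6. Which annotation release was used, and how transcripts were summed, is not given in the sources used here. Library columns were matched by library name. 3 columns of a second table matched no sample and were not used. The 10 genes, lists, pairs and motifs were chosen with earlier results of these data known. The text names all 10, the genes of the pairs, the 3 highest of each pathway list and those below 1 TPM, and the highest of each marker list; Daxx, overlapping or adjacent genes and further markers were added after their values were seen.

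Within each library, log2((TPM + 1) of a gene / (TPM + 1) of a second gene) was taken for every gene averaging 1 TPM or more. Its mean was tested two-sided with the empirical Bayes fit of limma 3.58.1 (R 4.3.3; intercept only; Benjamini-Hochberg over all 12013 genes tested; threshold 0.05). A ratio on this scale understates that of low genes. Python 3.11.15 and pandas 2.3.3 were used. Gene positions and 31-base words came from GENCODE M21 (GRCm38). Promoters came from RefSeq.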

Additional observations from a re-analysis of the deposited data

How the results depend on the processing

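No paired analysis was possible because all 3 libraries belong to 1 group. Of the 10 pairs by role, 6 were left to pass when genes had to average 5 TPM to be tested, because Tert and Pot1b fall below that level. Terf1 over Terf2 kept its direction and lost its call with the spread of that ratio alone (0.23; an alternative chosen after seeing the data), and when a replicate was left out its log2 ratio ran from 0.17 to 0.27. Leaving out a replicate left 9 to 10 pairs and 5 to 7 neighbouring pairs past the threshold, and the spread of each ratio alone left 9 and 4. Terf2 over Pot1a passed with a pseudocount of 5 TPM (0.16) and with no filter on low values (0.19). Rtel1 over Terf2ip turned to -0.014 without replicate 1 and -0.0057 without replicate 3, against 0.10 without replicate 2, and passed in none of them. A detection minimum of 5 TPM left 8 of the 10 genes, and 55 of the 66 genes of the other lists in place of 61. Scaling TPM to the total left after removing mitochondrial and ribosomal protein genes raised the mean of each of the 10 genes 1.36-fold and left the ratios on the same side of the threshold. Depth is not known, so no counting error is given.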
